A study of Mus musculus with 6 samples.

Results

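The circular RNAs described here are the 128 of 14218 on a mouse array that were at least 2-fold lower in benzo[a]pyrene (BaP) samples than in controls. They were selected on the measured values themselves, in the log2 value table deposited by the authors. A circular RNA entered the list where the mean of 3 BaP arrays minus the mean of 3 control arrays was -1 or less and the highest BaP value lay below the lowest control value. That is 0.900% of the circular RNAs measured. The mirrored rule for higher values took 292 (2.05%). Since the difference between BaP and control chose the members, that difference is given as a description and was not tested again.

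Circular RNAs (circRNAs) form when the splicing machinery joins the end of an exon back to an upstream start, which leaves a closed ring without free ends. Such rings resist RNase R, an exonuclease that removes linear RNA, and they are known to be long-lived in cells. BaP is a combustion product that binds the aryl hydrocarbon receptor, a transcription factor that switches on xenobiotic enzymes such as Cyp1a1. In smooth muscle of the vessel wall, polycyclic hydrocarbons of smoke are studied for their link with vascular disease.

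The cells were MOVAS, an established mouse line of smooth muscle from the aorta. The BaP group (replicates 1 to 3) received BaP, and the control group (replicates 1 to 3) received vehicle. The labels give neither dose nor duration. RNA of both groups was treated with RNase R and hybridised to single-colour arrays, 1 per sample. The labels do not say whether replicates were separate cultures, so the spread between arrays may be technical. A macrophage line is also named in the labels, but it has no sample. None of 21 fixed marker genes of smooth muscle, macrophages, fibroblasts or endothelium lay among the mRNA probes with a symbol (44 of 50), so the cell type could not be checked. In bulk RNA of this kind, fewer cells that make a circRNA and less of it per cell cannot be told apart.

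The arrays differ in brightness and in placement. The median processed signal of all circRNAs was 35.9 to 58.2. By the position codes in the file headers, BaP replicate 1 shared slide side 1 with the controls, while BaP replicates 2 and 3 were on side 2 without a control. BaP replicate 3 stood apart from the other BaP arrays in the lowered circRNAs, so the results are given by array, and with and without it. Without BaP replicate 3 the same rule took 58 circRNAs, all of them among the 128.

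In control cells the lowered circRNAs were mostly of middle to high level. Their median control level was 7.96 on the log2 scale of the value table, against 6.09 for all circRNAs, and 126 of the 128 lay above that overall median. The range ran from 6.08 to 14.94. Of the 3555 circRNAs in the first quartile of control levels 0 were on the list, and in the second quartile 2 of 3554 were. The third quartile held 40 of 3554 (1.13%), and the range from there to the top decile held 52 of 2133 (2.44%). The top decile held 34 of 1422 (2.39%). The lowest BaP mean of any circRNA in the value table is 4.28, so those of the first quartile, with control means of up to 5.29, could hardly reach a difference of -1 by this scale. Among the 100 brightest circRNAs of the controls 5 were on the list.

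**Figure D1:**
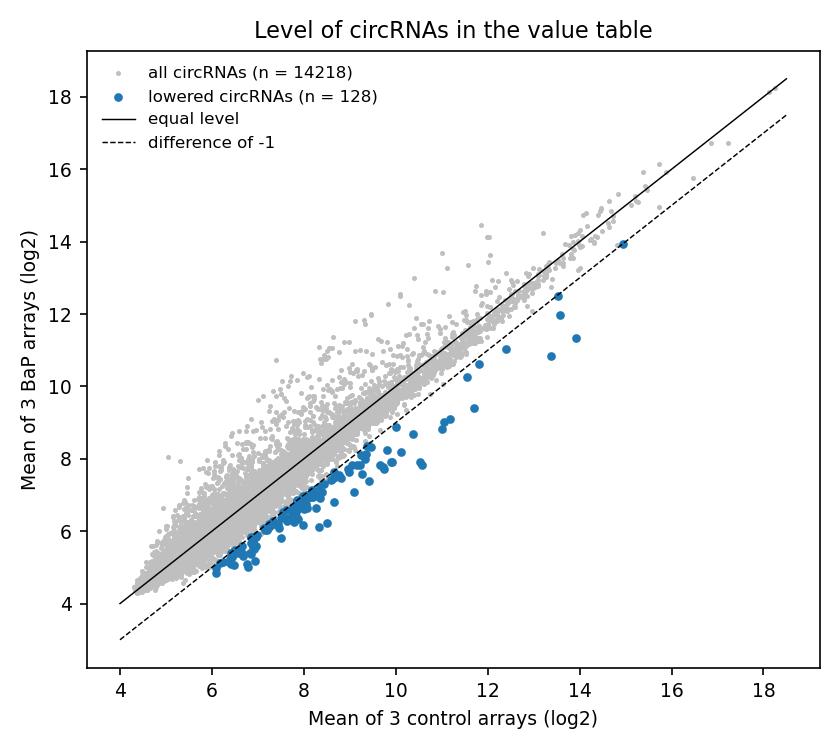
Mean level of each circRNA on 3 control arrays (horizontal, log2) and 3 BaP arrays (vertical, log2), with all 14218 in grey and the 128 lowered ones in blue. The lowered circRNAs lie on or under the dashed line of a difference of -1, from a control level of 6.08 up to 14.94. The 8 grey circRNAs past that line are those whose groups overlap.

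Most differences were modest. The median BaP minus control difference over the 128 was -1.25 (log2), against -0.03 over all circRNAs, and the quartiles were -1.49 and -1.13. As a share of the control level, the circRNAs kept 14.9% to 49.9%, with a median of 41.9%. A difference of -1.5 or less was seen in 32 and of -2 or less in 13.

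The files do not pair the probes with host genes or sequences, so the 2 members with the largest differences are named by probe ID and the others are described by their rank. ASCRP4003813 had log2 values of 10.10, 10.56 and 11.06 in control replicates 1 to 3 and of 8.32, 8.22 and 6.94 in BaP replicates 1 to 3. All BaP arrays lay below all controls by 1.78 or more, and BaP replicate 3 was the lowest. Its means were 10.57 ± 0.48 and 7.83 ± 0.77 (SD, n = 3 each), a difference of -2.75, or 6.71-fold. ASCRP4001070 read almost the same on every array, at 10.06, 10.53 and 10.99 in controls and 8.36, 8.31 and 7.03 after BaP. Its difference was -2.62, from 10.52 ± 0.47 to 7.90 ± 0.75 (SD, n = 3 each). Whether these probes share a host gene or a sequence was not tested.

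The differences ranked 3 to 5 belonged to bright circRNAs that the controls measured tightly. The third had control values of 13.91, 13.94 and 13.94, and BaP values of 12.40, 11.94 and 9.68. Its controls agreed within an SD of 0.02, while its BaP arrays spread with an SD of 1.45, and its difference was -2.58. The fourth went from 13.31, 13.44 and 13.40 to 11.85, 11.36 and 9.28, a difference of -2.55. The circRNA at rank 5 went from 11.63, 11.59 and 11.87 to 10.32, 9.86 and 8.06, a difference of -2.29. In these circRNAs BaP replicate 2 lay under BaP replicate 1 by more than the controls differed, and BaP replicate 3 was far lower again.

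The sixth and seventh were dimmer, at control means of 8.50 ± 0.47 and 8.34 ± 0.47 and BaP means of 6.24 ± 0.46 and 6.12 ± 0.49 (SD, n = 3 each). They differed by -2.26 and -2.22, with a like spread in both groups. For the circRNA with the 23rd largest difference the BaP arrays were level with each other, at 7.65, 7.71 and 7.35, under controls of 9.08, 9.48 and 9.24. The difference of -1.69 was there several times the SD of 0.20 in controls and 0.19 in BaP arrays.

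The brightest member in control cells had values of 14.82, 14.82 and 15.19 there and of 13.95, 14.12 and 13.72 after BaP. Its difference of -1.01 was only just past the threshold, and it stayed among the bright circRNAs, with processed signals of 13610 to 19439 on BaP arrays. The member with the fourth highest control level went from 13.54 ± 0.29 to 12.49 ± 0.38 (SD, n = 3 each), a difference of -1.05. The dimmest member had control values of 5.66, 6.44 and 6.15 and BaP values of 4.84, 4.85 and 4.83. Those BaP values are close to the floor of the table, and their SD of 0.01 is the smallest of the list.

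The 3 BaP arrays did not share the difference equally. Taken against the mean of its own controls, the median member was at -0.96 in BaP replicate 1, -0.98 in BaP replicate 2 and -1.95 in BaP replicate 3. Over all circRNAs the same medians were -0.05, -0.05 and 0.02. BaP replicate 3 was the lowest BaP array for 112 of the 128, against 4420 of all 14218. It lay at least 1 below the mean of BaP replicates 1 and 2 in 65 members, at least 2 below in 8, and above that mean in 12. The median of this gap was -1.01 in the list and 0.07 over all circRNAs. The rule used the mean of these same BaP values, so a low value on BaP replicate 3 could itself bring a circRNA onto the list. These contrasts with all circRNAs are therefore a description of the list.

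**Figure D2:**
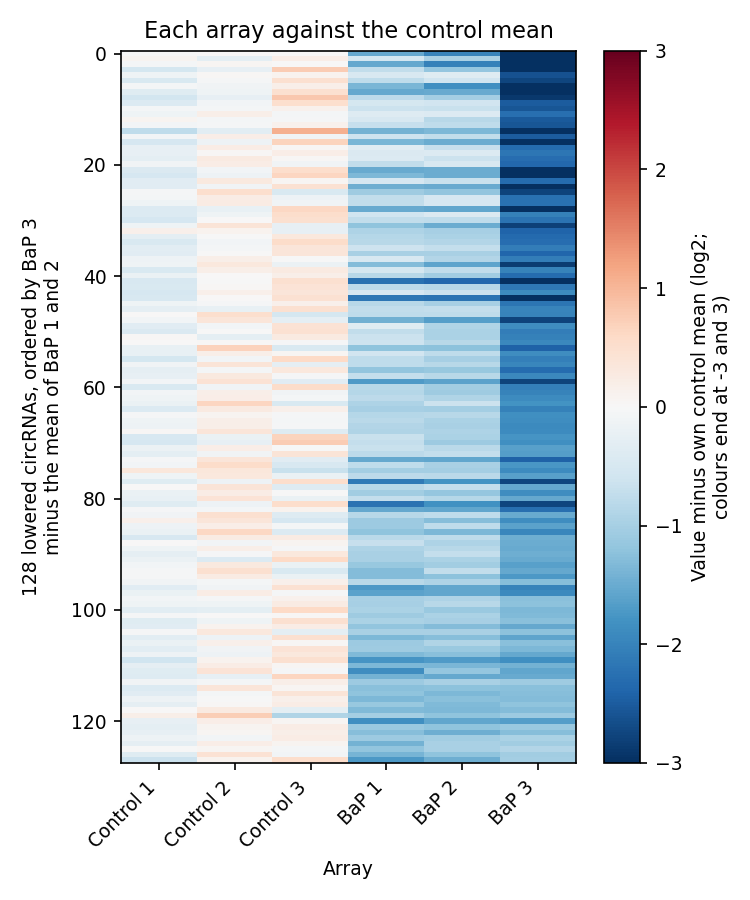
Each of the 128 lowered circRNAs (rows) on each of the 6 arrays (columns) as its log2 value minus its own control mean, ordered by how far BaP replicate 3 lies from the mean of BaP replicates 1 and 2. BaP 3 is the darkest column in the upper part, and in the lowest rows the 3 BaP columns have a like shade.

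All 3 BaP arrays taken singly were at -1 or less against the control mean in 50 members. A further 17 reached -1 on 2 BaP arrays. Over all 14218 circRNAs these counts were also 50 and 17, so no circRNA outside the list did so. The remaining 61 members reached -1 on 1 BaP array, against 357 of all circRNAs, and in 60 of the 61 it was BaP replicate 3. In those 60 the median was -0.75 in BaP replicate 1, -0.82 in BaP replicate 2 and -1.96 in BaP replicate 3. In the 50 it was -1.36, -1.46 and -1.93. The sets differ in how far BaP replicates 1 and 2 went, which is also what separated them. The rule needs a mean of -1 or less over the 3 BaP arrays. Members short of -1 on BaP replicates 1 and 2 could thus enter only with BaP replicate 3 past it. Nothing is therefore read from the like medians of BaP replicate 3. These sets were formed after the values were seen. One member of the 60 was the third brightest, with controls of 13.65, 13.27 and 13.77 and BaP values of 13.02, 12.58 and 10.33.

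**Figure D3:**
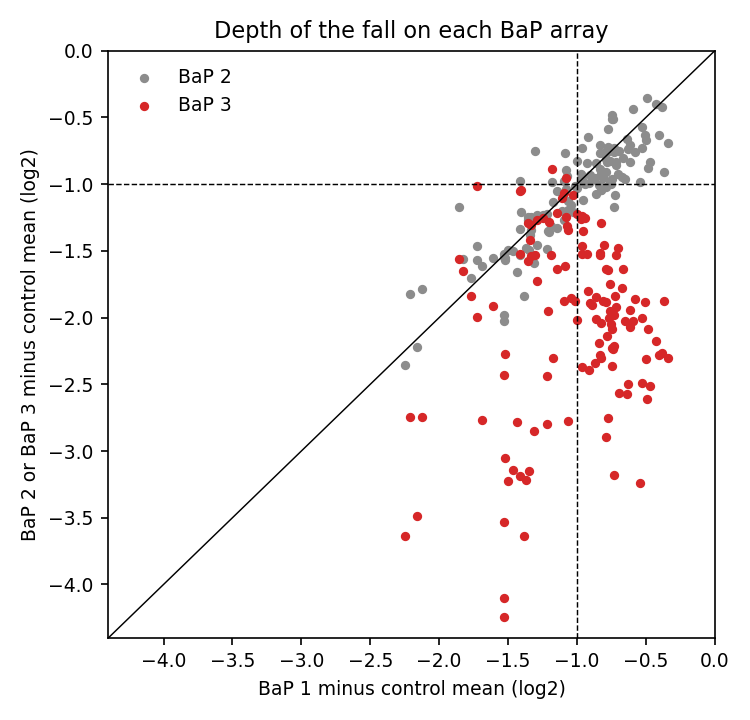
Difference from the control mean (log2) on BaP replicate 1 (horizontal) against that on BaP replicate 2 (grey) or BaP replicate 3 (red) for the 128 lowered circRNAs, with dashed lines at -1 and a solid line of equality. Grey points follow the line, and red points lie under it for most members, with 126 at -1 or less on BaP 3 against 58 on BaP 1.

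The slide side holds both groups only where BaP replicate 1 lies. Within that side, BaP replicate 1 against the 3 controls gave a median difference of -0.96 over the members. The rule placed every member below the controls on that array, so this gives a size and is no support for the direction. With the rule applied inside that side 61 circRNAs were taken, of which 58 are among the 128. BaP replicates 2 and 3 had no control on their side, so for them side and treatment cannot be told apart.

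Spread within a group was wider in these circRNAs than across the array, though all circRNAs were not matched to them by level. The values are those that the rule used, so the spread is given as a description. The median SD over the control arrays was 0.33 for the members and 0.11 for all circRNAs, and over the BaP arrays 0.59 and 0.13. The BaP SD exceeded the control SD in 88 members. BaP replicates 1 and 2 differed by a median of 0.13 in the members, less than any pair of controls, whose medians were 0.32 to 0.43. Over all circRNAs the order was the same, at 0.09 for these BaP arrays and 0.11 to 0.16 for the control pairs. Pairs with BaP replicate 3 are not part of this comparison. The controls had an order too. Control replicate 1 was the lowest control in 88 members, against 4572 of all circRNAs, and it lay at a median of -0.20 from the control mean, with 0.06 and 0.12 for replicates 2 and 3. In 75 members control replicate 1 was the lowest control and BaP replicate 3 the lowest BaP array.

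The distance between the groups varied as well. The gap from the lowest control to the highest BaP value had a median of 0.63 and was at least 1 in 27 members and at least 0.5 in 80. It was under 0.1 in 5, the narrowest at 0.0016. Over the whole array 2405 circRNAs (16.9%) had all BaP arrays below all controls, so the fold of 2 was the stricter condition. Only 8 circRNAs with a mean difference of -1 or less were left out for overlap. A fit over the whole table (limma, Benjamini-Hochberg adjusted p of 0.05) called 374 circRNAs lower (2.63%), 69 of the 128 among them. Nothing is read from those 69, since the same contrast chose the list. That fit gave 71 to 468 when single arrays were left out, and 0 when slide side or replicate number entered as a block, where 607 and 1308 were lower at an unadjusted p under 0.05.

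At the edge of the list, the 5 members just inside had differences from -1.014 to -1.002, and the 5 non-overlapping circRNAs just outside had -0.9986 to -0.9848. The member nearest to the threshold had control values of 7.62, 7.89 and 8.07 and BaP values of 7.43, 7.46 and 5.68. Its difference of -1.002 came mostly from BaP replicate 3. The nearest circRNA outside had 6.63, 6.95 and 6.03 in controls and 5.68, 5.75 and 5.19 after BaP. The list therefore has no natural end at this threshold. A 1.5-fold rule took 365 circRNAs.

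How much signal was left after BaP was read against the array's negative control probes in the scanner files, which have 10 spots each. Between 10 and 12 of these 15 probes had a processed signal (background-subtracted brightness, linear scale) under 20 on an array, with medians of 2.47 to 6.62. The brightest of them, negative control probe 15, read 82.6 to 131 across the arrays. A circRNA signal under that probe is therefore not distinct from the brightest nonspecific signal, although it can be far over a typical negative control.

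In controls the median member had a processed signal of 242, 294 and 180 on replicates 1 to 3. After BaP it was 136, 120 and 39.9. The median member thus stood above the brightest negative control probe on the controls and, narrowly, on BaP replicates 1 and 2, where that probe read 116 and 98.2. On BaP replicate 3 it stood under that probe, which read 90.8, and was 9.94 times the median negative control.

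On the control arrays 36, 15 and 30 of the 128 members lay at or under the brightest negative control probe. On BaP arrays 59, 57 and 97 did. Over all circRNAs the share was 65.0% to 70.0% on every array, so the lowered circRNAs began clearer of that signal than most and, on BaP replicate 3, ended in it for the larger part. Against the second brightest negative control, 9, 1 and 8 members lay at or under it on controls and 33, 35 and 72 on BaP arrays. Over all circRNAs that share was 50.1% to 54.7%. Against the median negative control 0 members did on 5 arrays and 1 did on BaP replicate 3, with 5.43% to 7.77% of all circRNAs.

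**Figure D4:**
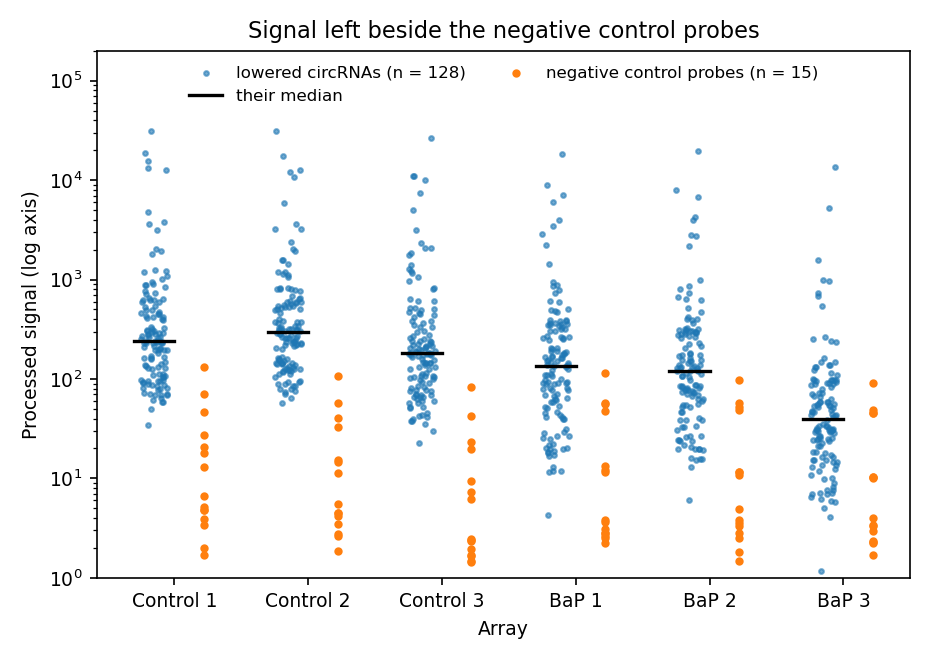
Processed signal (log axis) of the 128 lowered circRNAs (blue, black bar at the median) and of the 15 negative control probes (orange) on each of the 6 arrays. The blue median is 180 to 294 on controls, 120 to 136 on BaP 1 and 2 and 39.9 on BaP 3, where most blue points overlap the orange ones.

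By member, 89 lay above every negative control probe on all 3 control arrays. Of these, 31 stayed above them on all BaP arrays, 38 went under the brightest on BaP replicate 3 alone, and 18 went under it on all 3 BaP arrays, which leaves 2 that did none of these. Averaged over the BaP arrays, 74 of the 128 lay at or under the brightest negative control probe, against 32 averaged over the controls, and 58 did without BaP replicate 3. Over all circRNAs the shares in these 3 settings were 66.4%, 68.5% and 66.1%. The scanner software's flag was less strict. All 128 were well above background on every control array, and 127, 128 and 124 were so on BaP replicates 1 to 3. Most circRNAs of the array carried that flag. The shares over all circRNAs were 93.9%, 93.6% and 86.4% on control replicates 1 to 3. On BaP replicates 1 to 3 they were 85.5%, 92.8% and 89.3%. Of the members, 123 had the flag on all 3 BaP arrays and 5 on 2 of them. No spot of a member was marked as saturated or as an outlier.

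ASCRP4003813 shows how the residual signal was placed. Its processed signals of 1257, 1576 and 1285 on controls became 349.6, 300.1 and 97.8 after BaP. Each still lay above all negative control probes of its array. The third member by size went from 10942 to 18778 on controls to 5959, 4295 and 989.9 on BaP arrays, far above them throughout. The dimmest member went from 34.7, 74.8 and 37.4 to 4.31, 6.09 and 6.57, which is the range of ordinary negative controls.

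The size of the difference for such dim circRNAs depended on how background was handled. For the dimmest member it was -1.24 in the value table, -3.18 in processed signals scaled to each array's 75th percentile, and -0.75 after normexp background correction with quantile normalization. For ASCRP4003813 the same values were -2.75, -2.79 and -2.55. In the brighter 64 members, by mean over all arrays, the median differences were -1.30, -1.45 and -1.16. In the dimmer 64 they were -1.20, -1.82 and -0.89. After normexp, 54 of the brighter and 18 of the dimmer members were still at -1 or less. In the value table BaP replicate 3 was the lowest BaP array in 64 of 64 brighter members, against 48 of 64 of the dimmer. On the scaled processed signals it was the lowest of all arrays in 121 of all 128 members, so this contrast was narrower there.

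Arrays that took no part in a choice give a reading that this choice did not use. The list of 128 itself was made on all arrays. The rule was applied to 2 controls and 2 BaP arrays, and the difference was read between the control and the BaP array left out, for all 9 choices. The value table had been normalized over all arrays together. Where BaP replicate 3 was left out, the rule took 55 to 81 circRNAs, and 98.5% to 100% of them were lower on the held-out pair, against 43.4% to 49.4% of all circRNAs. Their median held-out difference was -1.94 to -1.61, and 80.2% to 94.5% were at -1 or less, against 2.31% to 4.02% of all circRNAs. The circRNAs chosen on BaP replicates 1 and 2 were thus mostly also lower in BaP replicate 3. Of them, 54 to 77 are among the 128. BaP replicates 2 and 3 share a slide side without a control, so side and treatment cannot be told apart there. The shares count circRNAs on single pairs of arrays, not replicates, and all circRNAs are not matched to the chosen ones by level.

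Where BaP replicate 1 was left out, the rule took 164 to 233 circRNAs, of which 86.3% to 97.0% were lower on the held-out pair, against 54.5% to 58.3% of all circRNAs. This pair lies on one slide side. The median there was -0.82 to -0.55, and 18.0% to 39.6% were at -1 or less, against 0.338% to 0.795% of all circRNAs. Where BaP replicate 2 was left out, 94.2% to 100% of 150 to 206 circRNAs were lower, against 55.6% to 59.0% of all circRNAs. Their median was -0.95 to -0.64, and 17.5% to 46.7% were at -1 or less, against 0.288% to 0.935% of all circRNAs. Over the 9 choices most of the chosen circRNAs were lower on the held-out pair. Most of them reached 2-fold only where that pair held BaP replicate 3. The choices share arrays, and the replicates may be technical. These shares therefore describe the arrays and are no independent support for the list.

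**Figure D5:**
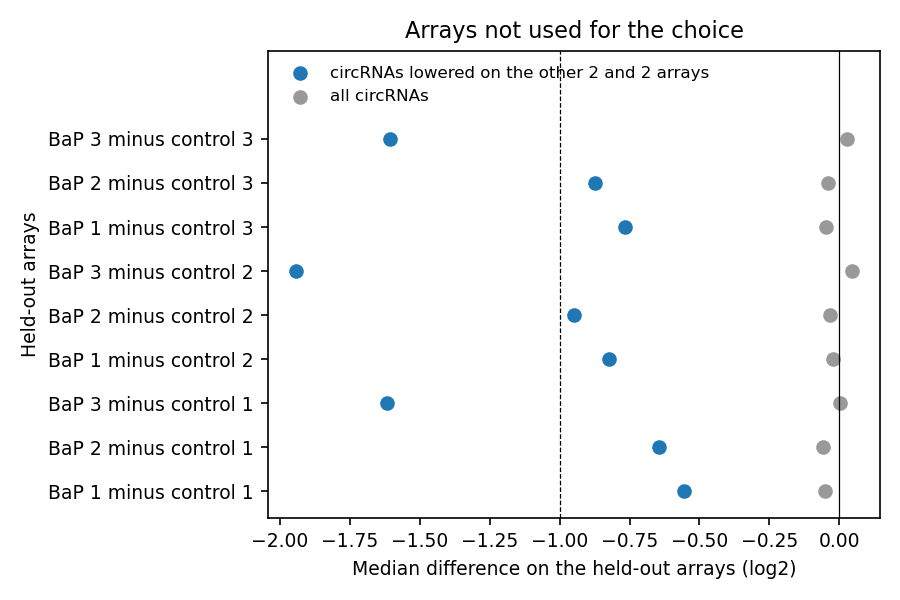
Median difference (log2) on the held-out pair of arrays for the circRNAs that the rule took from the other 2 control and 2 BaP arrays (blue) and for all circRNAs (grey), with a dashed line at -1. Blue points lie between -1.94 and -0.55, past the dashed line only where BaP 3 was held out, and grey points lie near 0.

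The array also carries 14 probes named as circRNA controls, which are not among the 14218. On processed signals scaled to each array's 75th percentile, their mean was 0.60, 0.81 and 0.84 on control replicates 1 to 3 and 0.19, 0.12 and -1.25 on BaP replicates 1 to 3 (log2). The mean of the 128 members on the same scale was 0.72, 1.08 and 1.07 and then -0.33, -0.34 and -1.83. The members were chosen to be lower on BaP arrays, so for them this is no observation. The control probes, which the rule did not use, had their lowest mean on BaP replicate 3 and their lowest control mean on control replicate 1, as the members did. The mean of all circRNAs was -1.51, -1.46 and -1.45 on controls and -1.48, -1.45 and -1.64 on BaP arrays. It too was lowest on BaP replicate 3 and, among controls, on control replicate 1, by smaller steps. BaP replicate 3 was the lowest of the 6 arrays for 12 of the 14 control probes and for 121 of the 128 members. All BaP arrays lay below all controls in 9 of the 14. These counts were not made over all circRNAs on this scale. The difference of the 14 control probes was -1.06 (exact permutation test over arrays, two-sided, p = 0.1). With 3 arrays a group no smaller p is possible. The 50 mRNA probes went the other way, at -1.27 to -1.23 on controls and -1.13 to -0.98 on BaP arrays (difference 0.19, exact permutation p of 0.1). Negative control probes had means of -4.28 to -4.14 and -4.30 to -4.27. The files do not state what the circRNA control probes detect, and their part in the result was not tested.

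Array position and probe number were not used by the rule. On the array surface, 73 of the 128 members (57.0%) had a row number at or under the midpoint and 60 (46.9%) a column number at or under it, against 50.1% and 50.2% of all circRNAs. Among the members there were 11 pairs whose probe numbers are 1 or 2 apart, which hold 21 circRNAs. The 292 raised circRNAs had 25 such pairs with 46 circRNAs. Across the 6 arrays the profiles of such neighbouring members, each relative to its control mean, differed at most by a median of 0.42, against 0.84 over all 8128 pairs of members. Neither the pairs nor their profiles were compared with neighbouring numbers over all circRNAs, so these values do not show whether neighbours are particular to the list. Whether neighbouring numbers mean a shared host gene is not stated in the files, so the members may be fewer independent transcripts than 128.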

How the data were processed

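The 6 arrays, 3 control and 3 BaP, were grouped by the sample labels. The log2 values deposited by the authors have nearly 1 distribution in every column. The steps behind them are not stated, and the submitters' processing notes name limma and Agilent Feature Extraction 11.0.1.1. The spot intensity values (processed signal, median signal, local background) are not normalized between arrays, per the file headers. Spots of 1 probe were averaged on the log2 scale. The flags for well above background are those of the scanner software, per the file headers. The whole-table fit was made with limma 3.58.1 (R 4.3.3; linear model, moderated variance, two-sided, adjusted by Benjamini-Hochberg) and was tested on simulated data. Figures were drawn with matplotlib 3.10.9. Alternatives were other scalings, normexp (offset 50), filters, thresholds, blocks, and leaving out arrays. Averaging BaP replicates 1 and 2 was added after the values were seen. The list, the rule and all comparisons were chosen with earlier results of these data known. Named by probe ID were the 2 members with the largest differences, and others by rank, since no host genes are paired and the planned host gene lists could not be used. Arrays number 6, which limits the precision.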

Additional observations from a re-analysis of the deposited data

How the results depend on the processing

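The list of 128 depended on background handling and on BaP replicate 3. It held 444 circRNAs with processed signals scaled to the 75th percentile (125 shared), 396 with the median (121 shared), 477 with the percentile over detected circRNAs (125 shared), 367 with quantile normalization (126 shared) and 72 with normexp and quantile normalization (72 shared). It held 61 within slide side 1, 32 at a difference of -1.5 or less and 365 at 1.5-fold. It ranged from 58 to 182 over the fits that left out 1 array, and the 58 was without BaP replicate 3. The median difference of -1.25 became -1.70 and -1.73 with the 75th percentile over all or detected circRNAs, and -1.42 to -0.95 without single arrays. The 74 members at or under the brightest negative control probe were 41 against the second brightest, 0 against the median one, and 58 to 81 without single BaP arrays. Over all circRNAs the shares were 66.4% for the brightest, 51.2% for the second brightest and 5.70% for the median one. Held-out circRNAs were lower in a median of 97.4% over the 9 choices, and in 89.1% with processed signals. The causes were not tested. The other filters, and averaging BaP replicates 1 and 2 (174), kept the count within 1.5 times.

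The whole-table limma count of 374 lower circRNAs was 0 in the fit with the replicate block (1308 had an unadjusted p under 0.05) and 0 with slide side as block (607). It was 95, 107 and 207 without control replicates 1, 2 and 3, and 144, 71 and 468 without BaP replicates 1, 2 and 3. Deviations from the group mean on same-numbered control and BaP arrays correlated across circRNAs at -0.42, 0.11 and -0.24. With so few pairs of arrays, these values cannot decide whether replicate numbers pair the arrays.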
